A study of Homo sapiens with 12 samples.

Results

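The comparison asks where lactate changed gene expression differently in the libraries labelled SW480 and those labelled DLD1, both names of established cell lines from human colorectal cancers. The quantity is the difference of the lactate effects, which is the log2 fold change from control to lactate in DLD1 minus the same change in SW480. A negative value means that a gene ended lower in DLD1 than its change in SW480 would have placed it, and a positive value means that it ended higher. The difference was estimated for each of the 17572 genes that passed a filter on low counts, of 54261 gene symbols in the table, and it used all 12 libraries of the series. These were 3 SW480 libraries without added lactate, 3 SW480 libraries with lactate, 3 DLD1 libraries without and 3 DLD1 libraries with lactate, each sequenced from total RNA. The labels describe biological replicates but do not say whether they were separate cultures, so the p-values measure the spread between these libraries. The dose of lactate, the time of exposure, the medium and its acidity do not appear in the labels.

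Lactate is what cells make from pyruvate when glycolysis runs fast. Monocarboxylate transporters carry it across the cell membrane together with a proton, and lactate dehydrogenase turns it back into pyruvate. In tumours it builds up where oxygen is scarce, and in other cell types it has been linked to activation of the transcription factor NF-kB, to the chemokine CXCL8 and to stable hypoxia-inducible factor (HIF). A gene can differ between the lines in 3 ways: it changes in opposite directions, it changes in only 1 line, or it changes in both by different amounts.

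Total counts per library ran from 12302311 to 22662063. DLD1 controls 2 and 3 stood apart from the rest of the series. When each library was set against the mean of its group's other libraries, the log2 differences over 12041 genes had a standard deviation of 0.537 and 0.442 in these and of at most 0.261 elsewhere. In these 2 the differences followed the GC content of the transcripts with Spearman's rho of -0.79 and 0.82. Such a trend was not confined to them: in the other 10 libraries rho ran from -0.61 in SW480 lactate 3 to 0.49 in SW480 lactate 1. Across the same genes the difference of the lactate effects itself followed GC content with a rho of 0.49, as a description. The DLD1 effect followed it with a rho of 0.69 and the SW480 effect with 0.03. Where GC content was known, its median was 51.3% for genes called higher in DLD1 and 47.1% for those called lower. Over all genes tested it was 48.5%. With the trend along GC content and transcript length removed from every library, 1426 genes were called. All 128 genes called below were among them, with the same sign.

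The markers of cell type set the lines apart before any treatment, and those of the libraries labelled SW480 only partly fit a colon epithelial cell. EPCAM and CDH1, which mark epithelial cells, averaged 0.965 and 1.45 CPM (a gene's counts relative to its library's total) in SW480 controls against 701.1 and 694.9 CPM in DLD1 controls. CDX2, a factor of intestinal identity, averaged 0.124 and 137.8 CPM. The keratins KRT8 and KRT18 were present in both lines, at 1316 and 738.2 CPM in SW480 controls. The 10 epithelial and colon markers summed to 1948 to 2299 CPM in SW480 controls and 1400 to 1665 after lactate, and to 6732 to 9748 and 9743 to 10790 in DLD1. The 11 fibroblast markers summed to 265.4 to 278.1 CPM in SW480 controls and 263.6 to 278.0 after lactate, led by COL3A1 and DCN, and to 13.5 to 18.2 in DLD1. The 13 leukocyte markers summed to 37.8 to 58.5 and 93.2 to 112.9 CPM in SW480 and to 5.76 to 12.8 and 14.03 to 18.04 in DLD1. In SW480 most of that was CD68, a lysosomal protein that is not restricted to leukocytes, and PTPRC, which defines leukocytes, averaged at most 0.157 CPM in any group. These markers leave the identity of the line labelled SW480 in doubt, and SW480 stands below for the libraries so labelled. The part of these baseline differences in the results was not tested. Line, and anything done separately for each line, cannot be told apart in this design.

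A difference is called where its adjusted p (Benjamini-Hochberg over all genes tested, edgeR's quasi-likelihood test, two-sided) is under 0.05. It was called for 128 genes, 0.728% of those tested. The DLD1 effect was the higher of the 2 for 57 genes (0.324%) and the lower for 71 (0.404%). Of the 128, 79 differed by at least 1 on the log2 scale, 34 higher and 45 lower. An unadjusted p under 0.05 was found for 2957 genes. Within the lines, lactate changed 2183 genes in SW480 (12.4%) and 67 in DLD1 (0.381%), but these counts are not a test of a difference between lines. The SW480 count was 689, 1219, 855 and 1211 without SW480 control 1 or 3 or SW480 lactate 2 or 3, and 4347 without DLD1 control 2. The DLD1 count ran from 3 without DLD1 control 1 to 3791 without DLD1 control 3, where the SW480 count was 3095. Only 4 genes were called in both lines in opposite directions: CCL20, CXCL8, CXCL3 and CYP4F12. A further 23 genes were called in both lines in the same direction, and the difference was called for 0 of these. Single libraries moved the 128 calls to 9 and 10 without SW480 control 1 or 3, to 238, 19 and 61 without SW480 lactate 1, 2 or 3, to 54, 596 and 1508 without DLD1 control 1, 2 or 3, and to 36, 30 and 11 without DLD1 lactate 1, 2 or 3. With limma-voom, 14 of the 48 called genes named by rule below were not called (PMAIP1, FMN1, CA12, TIPARP, NR1D1, EID2B, PLK1, AKR1B10, KRT81, HYAL1, FOS, ALPK3, ZNF488 and RARRES3; adjusted p from 0.0517 to 0.0888).

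The estimated SW480 effect was the larger in size for 108 of the 128 called genes, and the DLD1 effect for 20. Among the 71 genes lower in DLD1, the estimated SW480 effect was above 0 in 71, with a median of 1.01 on the log2 scale, and the DLD1 effect had a median of -0.07. Among the 57 genes higher in DLD1, the estimated SW480 effect was below 0 in 55, with a median of -0.75, and the DLD1 effect was above 0 in 47, with a median of 0.30. These medians describe genes chosen for their difference. Over all genes tested the 2 effects had a Pearson's r of 0.058 across genes, which are not independent replicates. For 54.3% of genes the 95% interval of the difference lay within 1 log2 unit of 0, and the median interval reached 0.55 to either side of the estimate. The remaining genes are not shown to respond alike.

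**Figure D1:**
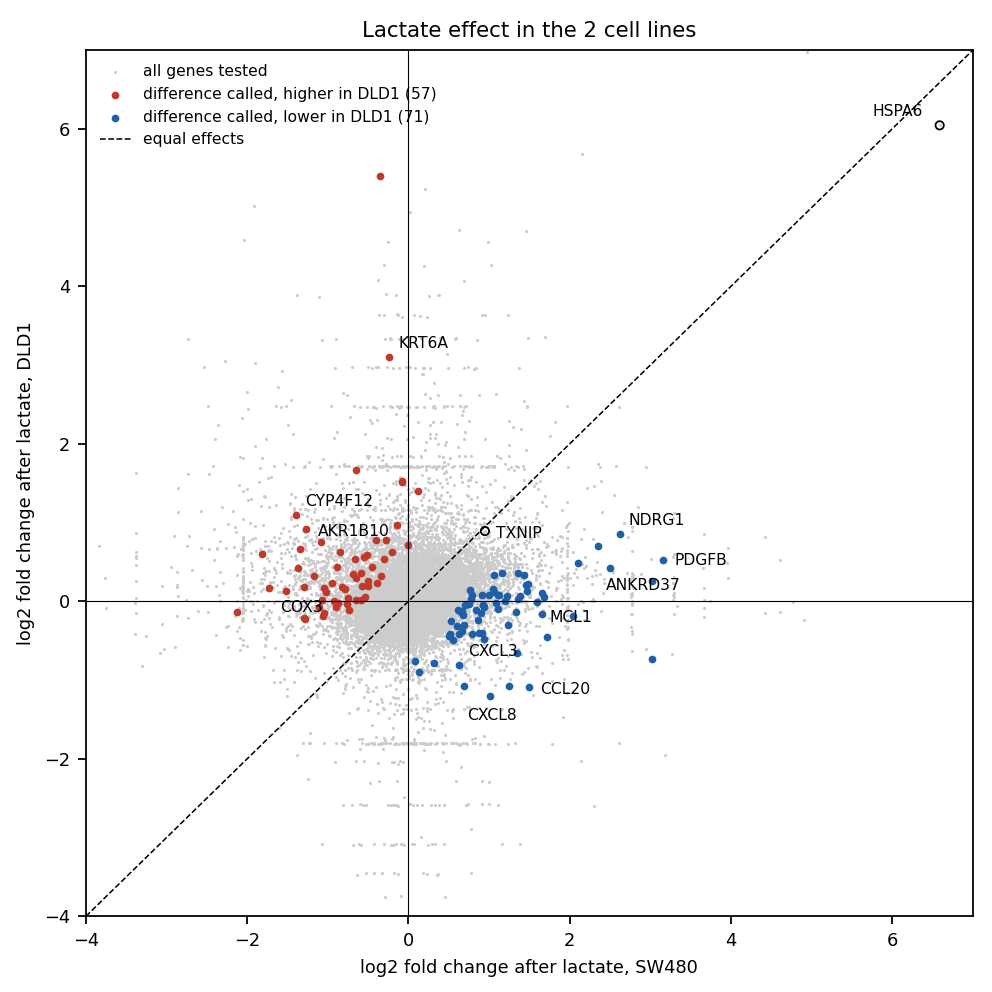
Each point is 1 gene of 17572 tested, placed by its log2 fold change from control to lactate in SW480 (x axis) and in DLD1 (y axis), with 8 genes outside the axes. The 57 red genes lie above the dashed line of equal effects and the 71 blue genes below it. HSPA6 and TXNIP (open circles) lie near the line, and their differences were not called.

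The chemokines gave the clearest contrast between the lines. These small secreted proteins draw leukocytes: CXCL1, CXCL2, CXCL3, CXCL5 and CXCL8 attract neutrophils through the receptor CXCR2, CXCL8 also through CXCR1, and CCL20 attracts cells that carry CCR6. Of the 12 chemokine genes tested, 6 were called lower in DLD1 and 0 higher, beside 0.728% of all genes in either direction. The median difference over the 12 was -0.93, against 0.01 over all genes, with a median effect of 0.27 in SW480 and -0.49 in DLD1. The list and its direction were known from earlier results of these data. The other 6 members ran from CCL28 at -2.93 (adjusted p = 0.38) to CX3CL1 at 2.83 (adjusted p = 0.23), both with low counts.

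CCL20 (chromosome 2, 227813842 to 227817556 on GRCh38.p14) had 24.8, 37.3 and 23.1 CPM in SW480 controls and 68.1, 88.1 and 79.4 CPM after lactate. DLD1 had 82.6, 91.3 and 63.8 CPM in controls and 36.2, 42.2 and 35.3 CPM after lactate. All 3 lactate libraries were above all 3 controls in SW480 and below them in DLD1, so lactate brought SW480 to about the level of untreated DLD1. The log2 effects were 1.5 and -1.09, and the difference was -2.59 ± 0.26 (SE; 95% interval -3.13 to -2.04; adjusted p = 0.000904). CXCL8, the main neutrophil attractant of this family, lies on chromosome 4 (73740569 to 73743716). It rose in SW480 from 495.5, 604.7 and 555.8 CPM to 937.9, 1192 and 1150 CPM. In DLD1 it fell from 111.7, 184.2 and 82.0 CPM to 56.9, 59.7 and 51.5 CPM, again without overlap. Its difference was -2.21 ± 0.31 (SE; adjusted p = 0.00797).

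CXCL3 rose in SW480 from 21.4, 23.4 and 21.7 CPM to 35.6, 31.0 and 34.8 CPM. In DLD1 it fell from 98.0, 96.4 and 91.5 CPM to 61.8, 50.8 and 53.9 CPM. The difference was -1.44 ± 0.15 (SE; adjusted p = 0.000904). CXCL1 differed by the DLD1 side: it fell there from 77.2, 82.4 and 73.0 CPM to 45.7, 39.4 and 42.5 CPM. In SW480 its controls had 618.0, 667.6 and 645.9 CPM and its lactate libraries 685.1, 706.4 and 692.7 CPM, a log2 effect of 0.13 (adjusted p = 0.37). The difference for CXCL1 was -1.02 ± 0.13 (SE; adjusted p = 0.00408). CXCL2 and CXCL5 were named after their values were seen. They fell in DLD1 by 0.75 and 0.79 on the log2 scale, had effects of 0.09 (adjusted p = 0.63) and 0.32 (adjusted p = 0.14) in SW480, and gave differences of -0.84 (adjusted p = 0.0168) and -1.11 (adjusted p = 0.0177). DLD1 controls differed among themselves for CXCL5, with 4501, 5363 and 3327 CPM against 2642, 2656 and 2482 CPM after lactate.

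The promoter windows of the 6 genes are shown because 5 of them hold the same short sequence. Each is the 120 bases before the gene's start in RefSeq (GRCh38.p14), read 5′ to 3′ on the gene's strand. Capitals mark GGAATTTCC, a form of the element that NF-kB dimers bind, searched on both strands and with no other motif searched.
CCL20, chr2:227813722-227813841, plus strand: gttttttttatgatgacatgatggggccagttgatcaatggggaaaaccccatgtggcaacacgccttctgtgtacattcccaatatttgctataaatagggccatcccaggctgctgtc
CXCL8, chr4:73740449-73740568, plus strand: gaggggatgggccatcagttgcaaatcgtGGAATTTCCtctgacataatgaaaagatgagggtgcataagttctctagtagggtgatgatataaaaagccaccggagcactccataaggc
CXCL3, chr4:74038690-74038809, minus strand: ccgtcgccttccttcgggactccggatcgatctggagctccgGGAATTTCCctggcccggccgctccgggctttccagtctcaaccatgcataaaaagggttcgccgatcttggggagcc
CXCL1, chr4:73869273-73869392, plus strand: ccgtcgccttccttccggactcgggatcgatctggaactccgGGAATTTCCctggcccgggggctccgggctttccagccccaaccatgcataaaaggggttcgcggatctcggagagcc
CXCL2, chr4:74099196-74099315, minus strand: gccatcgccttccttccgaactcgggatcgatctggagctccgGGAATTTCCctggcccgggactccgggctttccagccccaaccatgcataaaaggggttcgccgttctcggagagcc
CXCL5, chr4:73998678-73998797, minus strand: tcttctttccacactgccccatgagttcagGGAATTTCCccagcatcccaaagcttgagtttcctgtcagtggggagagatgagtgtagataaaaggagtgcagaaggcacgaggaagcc

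The match begins 77 to 91 bases before the start in the 5 windows that hold it. Among all RefSeq windows of this length, 75 of 35116 hold it (0.214%), and counted by gene symbol 74 of 27305 do (0.271%). The motif was set by hand and the genes shown were picked from the calls. These shares are therefore not a test of enrichment. By gene, 6 of the 57 called lower in DLD1 and matched to a window hold it, 5 of them shown above. Of the 39 matched genes called higher, 0 hold it. At a share of 0.271% over all symbols that count says nothing about a contrast between the directions. Of the 9 tested chemokine genes matched to a window, called or not, 6 hold it. Aligned without gaps over 120 positions, CXCL3 and CXCL1 carry the same base at 109, CXCL1 and CXCL2 at 81 and CXCL3 and CXCL2 at 74, so these 3 windows are not separate observations. The CCL20 window holds no match, which says only that these letters are not in it. Other forms of the element were not searched, so the CCL20 window is not shown to lack one. It holds the letters ggggaaaacccc, which resemble such an element and were not scored. A match is a description of the sequence and was not tied to binding in these cells.

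CXCL1, CXCL2 and CXCL3 are similar over their transcripts too, and the labels do not say how reads that fit more than 1 gene were counted. The calls for CCL20, CXCL8, CXCL3 and CXCL1 held without any 1 of the 12 libraries. CXCL5 was not called without SW480 control 1 or 3, SW480 lactate 2, DLD1 control 1, or DLD1 lactate 1, 2 or 3, and CXCL2 was not called without SW480 control 1 or 3, SW480 lactate 2, or DLD1 lactate 2 or 3, with adjusted p from 0.0515 to 0.0781.

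**Figure D2:**
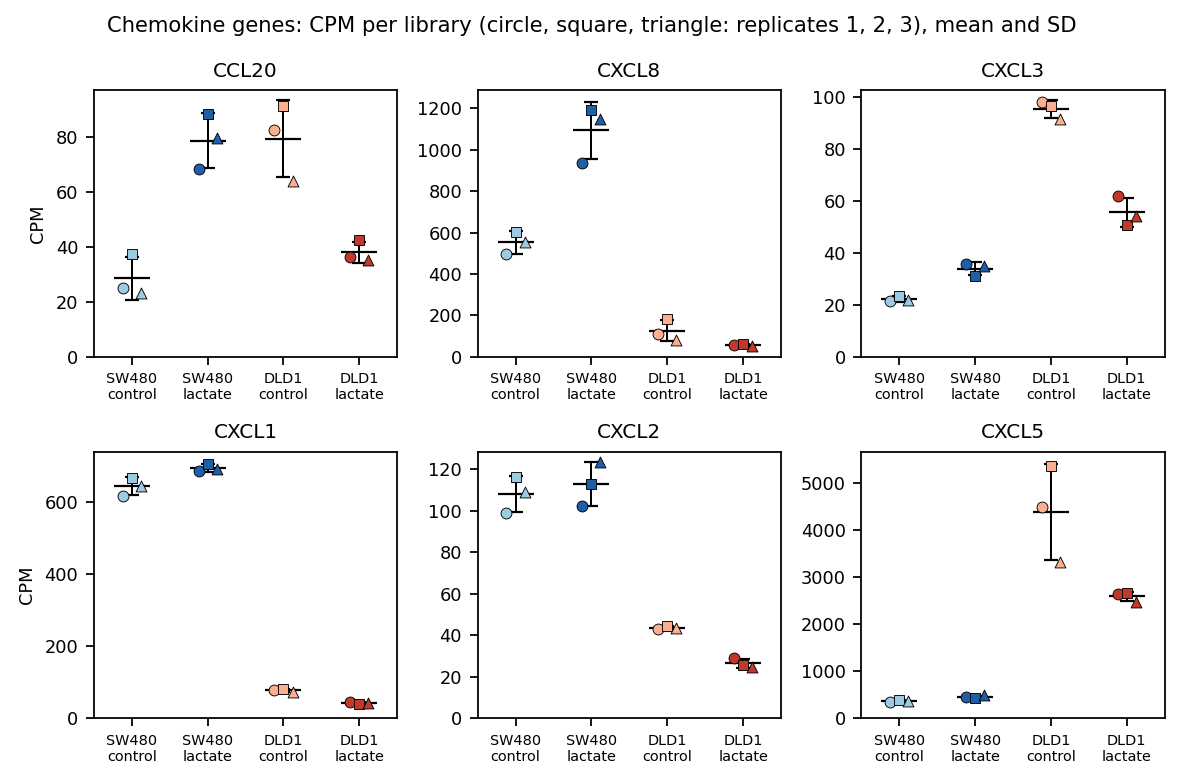
CPM of 6 chemokine genes in each of the 12 libraries (points, with a symbol for each replicate number), with the mean (bar) and SD (error bar) of the 3 libraries of a group, on axes that start at 0. In DLD1 the 3 lactate libraries are below the 3 controls for all 6 genes. In SW480 they are above the controls for CCL20, CXCL8, CXCL3, CXCL1 and CXCL5, and the SW480 effect was called for CCL20, CXCL8 and CXCL3.

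NF-kB itself is held in check by genes it switches on, among them TNFAIP3, which encodes the ubiquitin-editing enzyme A20, and NFKBIZ, an atypical inhibitor protein in the nucleus. Of 19 NF-kB subunits and feedback genes tested, these 2 were called lower in DLD1 and 0 higher, beside 0.404% and 0.324% of all genes. The median difference was -0.43, against 0.01 over all genes. TNFAIP3 rose in SW480 from 564.5, 699.3 and 645.0 CPM to 985.3, 1051 and 971.0 CPM. The DLD1 values were 60.4, 59.9 and 64.1 CPM in controls and 59.7, 52.7 and 53.7 CPM after lactate. Its levels overlapped in neither line, but the DLD1 change of -0.18 did not pass the test (adjusted p = 0.36). The difference was -0.86 ± 0.14 (SE; adjusted p = 0.0168) for TNFAIP3 and -0.99 ± 0.19 (SE; adjusted p = 0.0254) for NFKBIZ. Of 16 inflammatory cytokine genes, 0 were called, with a median difference of -0.46. IL1B, which encodes interleukin 1 beta, rose in SW480 from a mean of 20.4 to 91.9 CPM and had at most 0.969 CPM in any DLD1 library, and its difference was -0.78 with a 95% interval of -2.31 to 0.75.

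Growth factor signals through MAP kinases switch on early genes and their own inhibitors. In both lines the lists of immediate early genes and of MAP kinase feedback genes had median effects above that of all genes. PHLDA1, SPRY2 and KLF6, called for the difference, rose in SW480 and changed little in DLD1. PHLDA1, a feedback gene of growth factor receptors (chromosome 12, 76025447 to 76031776), had 202.9, 293.6 and 256.7 CPM in SW480 controls and 747.4, 816.3 and 776.1 CPM after lactate. In DLD1 its controls had 423.6, 538.8 and 433.0 CPM and its lactate libraries 540.7, 497.8 and 488.6 CPM, which overlap. The difference was -1.55 ± 0.19 (SE; adjusted p = 0.00374), with effects of 1.66 and 0.10. SPRY2, an inhibitor of receptor signalling, went from a mean of 25.8 to 50.8 CPM in SW480 and from 16.1 to 17.3 CPM in DLD1, a difference of -0.93 ± 0.16 (SE; adjusted p = 0.0168). PHLDA1 and SPRY2 were the only called genes among 21 MAP kinase feedback genes, beside 0.404% of all genes called lower. The median difference of the list was -0.30, with median effects of 0.42 in SW480 and 0.20 in DLD1. PDGFB, which encodes a platelet-derived growth factor chain, rose in SW480 from 0.322, 1.06 and 0.289 CPM to 4.43, 4.60 and 4.77 CPM, and its difference was -2.64 ± 0.42 (SE; adjusted p = 0.0147).

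MCL1, which keeps mitochondria from releasing their death signal and so lets cells survive, lies on chromosome 1 (150574558 to 150579610). It had 1881, 2737 and 2225 CPM in SW480 controls and 6377, 7547 and 6316 CPM after lactate. DLD1 held far less and its groups overlapped, with 201.2, 236.5 and 187.6 CPM in controls and 215.0, 217.5 and 197.9 CPM after lactate. The difference was -1.60 ± 0.20 (SE; adjusted p = 0.00374). PMAIP1, whose protein NOXA binds MCL1 and opposes it, differed the same way, by -0.93 ± 0.19 (SE; adjusted p = 0.0432). It rose in SW480 from a mean of 152.7 to 214.6 CPM and had means of 56.3 and 42.9 CPM in DLD1. MCL1 and PMAIP1 were the 2 calls among 15 BCL2 family genes tested, beside 0.728% of all genes. The other 13 were not called. AKAP12, a scaffold for protein kinase A (chromosome 6, 151239967 to 151358559), rose in SW480 from 815.5, 1448 and 1130 CPM to 3402, 3558 and 3767 CPM. In DLD1 it stayed between 22.4 and 27.5 CPM in all 6 libraries, and its difference was -1.62 ± 0.23 (SE; adjusted p = 0.00886).

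Among 29 immediate early genes, MCL1 and KLF6 were called lower in DLD1 and FOS was called higher, beside 0.404% and 0.324% of all genes. The median effect of the list was 0.63 in SW480 and 0.45 in DLD1, with a median difference of -0.15. KLF6, a zinc finger transcription factor, went from a mean of 93.1 to 173.3 CPM in SW480 and from 94.3 to 101.8 CPM in DLD1, from nearly equal controls. Its difference was -0.83 ± 0.14 (SE; adjusted p = 0.0168). FOS, a subunit of the AP-1 factor, ran the other way: it rose in DLD1 from 3.08, 2.01 and 3.28 CPM to 8.29, 8.46 and 6.22 CPM. In SW480 its controls had 32.9, 42.7 and 37.8 CPM and its lactate libraries 41.5, 42.7 and 36.5 CPM, which overlap. The FOS difference was 1.29 ± 0.25 (SE; adjusted p = 0.0271). MYC, a driver of growth and a target of Wnt signals in colon cancer, had a difference of -0.28 (95% interval -0.63 to 0.06; adjusted p = 0.39). FMN1, which encodes an actin-nucleating formin, had 1, 1 and 2 counts in SW480 controls and 12, 9 and 16 after lactate. The ratio of its summed CPM was 8.44 (95% interval 3.03 to 32.6, exact binomial, counting error only), and its adjusted p for the difference was 0.0445.

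Of the 10 called genes TNFAIP3, NFKBIZ, PHLDA1, SPRY2, PDGFB, MCL1, PMAIP1, AKAP12, KLF6 and FMN1, PHLDA1, MCL1 and AKAP12 held without any 1 library. The other 7 were not called without SW480 control 1 or 3 or without DLD1 lactate 3, and 2 to 6 of them were not called without SW480 control 2, SW480 lactate 2 or 3, DLD1 control 1, or DLD1 lactate 1 or 2, with adjusted p from 0.0523 to 0.185.

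**Figure D3:**
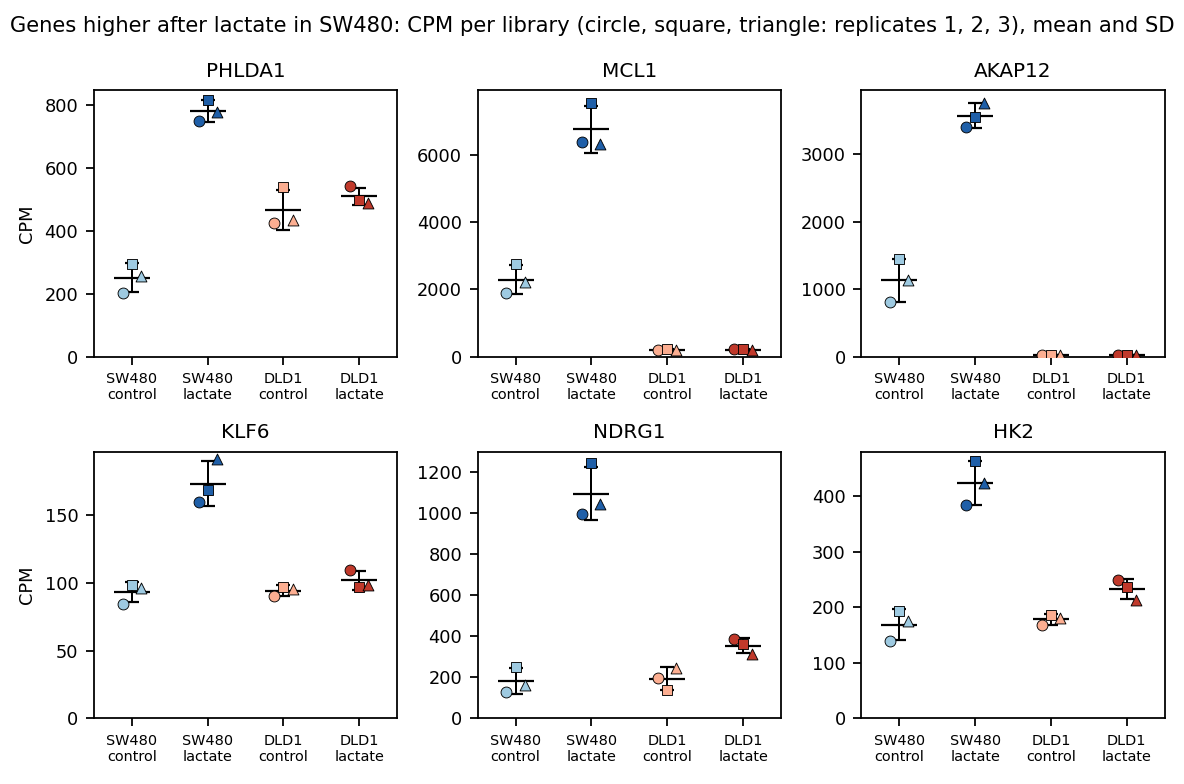
CPM of 6 genes that rose after lactate in SW480, in each of the 12 libraries (points, with a symbol for each replicate number), with the mean (bar) and SD (error bar) of 3 libraries, on axes that start at 0. The SW480 lactate libraries are above the SW480 controls for all 6 genes. MCL1 and AKAP12 are far lower in DLD1 than in SW480, whereas KLF6 and HK2 have similar controls in both lines.

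HIF switches on genes for glucose use, acid export and survival when oxygen is low. Of 29 HIF targets outside glycolysis, 4 were called lower in DLD1 and 0 higher, beside 0.728% of all genes. Their median effect was 0.66 in SW480 and 0.43 in DLD1, so the list lay above the median of all genes in both lines, and the median difference was -0.33. NDRG1, a stress gene with a strong response to low oxygen, had 128.3, 250.7 and 163.5 CPM in SW480 controls and 995.3, 1241 and 1045 CPM after lactate. In DLD1 it had 195.1, 136.9 and 245.5 CPM in controls and 384.7, 362.1 and 314.4 CPM after lactate. The groups did not overlap in either line, but the DLD1 effect of 0.86 did not pass the test (adjusted p = 0.12). The difference was -1.77 ± 0.31 (SE; adjusted p = 0.0187).

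ANKRD37, a small ankyrin-repeat gene under HIF control, rose in SW480 from 6.88, 12.3 and 9.66 CPM to 37.8, 70.8 and 50.3 CPM. DLD1 had 10.9, 7.84 and 12.8 CPM in controls and 12.8, 16.5 and 13.7 CPM after lactate. Its difference was -2.08 ± 0.35 (SE; adjusted p = 0.0168). HILPDA, which slows the breakdown of lipid droplets, went from a mean of 49.0 to 129.1 CPM in SW480 and from 47.8 to 61.2 CPM in DLD1. CA12, a carbonic anhydrase on the cell surface that handles acid, rose in SW480 from a mean of 223.3 to 322.9 CPM and had means of 3.12 and 2.24 CPM in DLD1. Their differences were -1.10 ± 0.21 (SE; adjusted p = 0.0302) and -1.05 ± 0.20 (SE; adjusted p = 0.0279). CA12 was also the only call among 14 carbonic anhydrases and pH transporters, beside 0.728% of all genes. ANGPTL4, a lipase inhibitor that rose in both lines, had a difference of 0.27 with a wide 95% interval of -0.44 to 0.98.

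In glycolysis, HK2 was the only call of 19 genes, beside 0.728% of all genes, and the median difference was 0.11. HK2 encodes the hexokinase that traps glucose in many tumours. It had 138.1, 192.2 and 174.8 CPM in SW480 controls and 383.4, 463.3 and 423.4 CPM after lactate. The DLD1 values were 167.5, 185.2 and 180.5 CPM in controls and 248.0, 235.5 and 212.3 CPM after lactate, above the controls in all 3 libraries, with an adjusted p of 0.17. The difference was -0.99 ± 0.17 (SE; adjusted p = 0.0168). Among 25 genes that carry, sense or convert lactate, 0 were called. LDHA and LDHB, the subunits of lactate dehydrogenase, had differences of -0.12 (95% interval -0.38 to 0.14) and 0.18 (-0.12 to 0.49). Both intervals lie within 0.5 log2 units of 0, and LDHA had means of 3506 and 3887 CPM in SW480 and 2582 and 2730 CPM in DLD1.

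None of the calls for NDRG1, ANKRD37, HILPDA, CA12 and HK2 held without SW480 control 1 or 3 or without DLD1 lactate 3, and 3 or 4 of the 5 were not called without SW480 lactate 2, DLD1 control 1, or DLD1 lactate 1 or 2, with adjusted p from 0.0542 to 0.119. Without DLD1 controls 2 and 3 together, where the lone control is assumed to vary like the other groups, NDRG1, ANKRD37, HILPDA and CA12 were not called, with adjusted p from 0.0526 to 0.0738.

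Other genes lower in DLD1 came from several pathways. ARG2, the mitochondrial arginase, rose in SW480 from 7.53, 11.7 and 8.04 CPM to 17.5, 17.4 and 15.9 CPM, while DLD1 had a mean of 16.7 CPM in controls and 12.1 CPM after lactate. SMS, which makes spermine, rose in SW480 from a mean of 173.5 to 268.3 CPM and had means of 121.3 and 112.6 CPM in DLD1. Their differences were -1.41 ± 0.23 (SE; adjusted p = 0.0168) and -0.78 ± 0.14 (SE; adjusted p = 0.0231). They were the 2 calls among 16 polyamine and arginine genes, beside 0.728% of all genes. TIPARP, a target and repressor of the aryl hydrocarbon receptor, differed by -0.97 ± 0.20 (SE; adjusted p = 0.0445). NR1D1, a repressor of the circadian clock, rose in SW480 from a mean of 6.46 to 26.9 CPM and had overlapping groups in DLD1, with a difference of -1.61 ± 0.34 (SE; adjusted p = 0.0452). NPC1, which moves cholesterol out of lysosomes, rose in SW480 from a mean of 76.0 to 156.0 CPM, with 54.2 and 69.6 CPM in DLD1 and a difference of -0.72 ± 0.15 (SE; adjusted p = 0.0373). EID2B differed by -1.77 ± 0.36 (SE; adjusted p = 0.0373), at no more than 1.04 CPM in any DLD1 library, and was not called without DLD1 controls 2 and 3 together (adjusted p = 0.105). All 6 of these calls were lost without SW480 control 1 or 3, SW480 lactate 2, or DLD1 lactate 1, 2 or 3, 5 of them without SW480 lactate 3 or DLD1 control 1, and TIPARP also without SW480 control 2, with adjusted p from 0.0515 to 0.173.

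PLK1 and KIF20A, 2 genes of cell division, fell in SW480 after lactate and were not called in DLD1. PLK1, the kinase that drives entry into mitosis, had 55.8, 44.0 and 53.5 CPM in SW480 controls and 25.1, 24.8 and 22.1 CPM after lactate. In DLD1 it had 112.9, 89.1 and 149.9 CPM in controls and 119.8, 108.2 and 133.8 CPM after lactate, which overlap. KIF20A, a motor protein of cytokinesis, went from a mean of 70.0 to 33.3 CPM in SW480 and from 133.6 to 122.7 CPM in DLD1. Their differences were 1.09 ± 0.23 (SE; adjusted p = 0.0445) and 0.90 ± 0.16 (SE; adjusted p = 0.0187). They were the 2 calls of 38 G2/M and mitosis genes, beside 0.728% of all genes. The median effects of the list were -0.50 in SW480 and -0.29 in DLD1, so the median was below 0 in both lines. CCNB1, the cyclin of mitotic entry, had a difference of 0.67 ± 0.16 (SE) that did not pass the test (adjusted p = 0.0706).

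MCM3, a subunit of the helicase that opens DNA for replication, fell in SW480 from 121.9, 100.4 and 113.1 CPM to 65.9, 61.5 and 69.5 CPM. DLD1 had 281.5, 264.1 and 277.8 CPM in controls and 277.5, 283.7 and 303.9 CPM after lactate. Its difference was 0.79 ± 0.13 (SE; adjusted p = 0.0168), the only call among 39 DNA replication and G1/S genes, beside 0.728% of all genes. Of the 39, 33 had an estimate above 0, against 51.2% of all genes. UBTF, a factor of ribosomal RNA transcription, was the only call among 40 ribosome biogenesis genes, beside 0.728% of all genes, at 0.67 ± 0.14 (SE; adjusted p = 0.0443). It fell in SW480 from a mean of 90.7 to 56.8 CPM and had means of 137.6 and 142.1 CPM in DLD1.

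The mitochondrial genome encodes 13 proteins of the respiratory chain. Transcripts of 3 were called higher in DLD1 and 0 lower, beside 0.324% and 0.404% of all genes. COX3 (the table's name for MT-CO3), a subunit of cytochrome c oxidase, fell in SW480 from 8463, 7255 and 7044 CPM to 4075, 3938 and 4254 CPM. The DLD1 values were 7702, 6534 and 7622 CPM in controls and 7258, 7599 and 7067 CPM after lactate. From similar controls the lines thus parted by 0.85 ± 0.14 (SE; adjusted p = 0.0168). COX2 (MT-CO2) and ND1 (MT-ND1) differed by 0.73 ± 0.14 (SE; adjusted p = 0.0337) and 0.64 ± 0.14 (SE; adjusted p = 0.0461), and both also fell in SW480. All 13 estimates were above 0, with a median of 0.55, from MT-ND4 at 0.10 to MT-ATP8 at 1.46, neither of which was called. These transcripts are cut from shared precursors and are not independent of each other. The 50 nuclear-encoded subunits of the respiratory chain had 0 calls and a median difference of 0.08.

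Each of the 7 calls of PLK1, KIF20A, MCM3, UBTF, COX3, COX2 and ND1 was lost without SW480 control 1 or 3, SW480 lactate 2, or DLD1 lactate 2 or 3, and 1 to 5 of them without SW480 control 2, SW480 lactate 1 or 3, DLD1 control 1 or DLD1 lactate 1, with adjusted p from 0.0522 to 0.175. With the GC and length trend removed, 18 of the 38 G2/M genes and 10 of the 39 replication genes were called higher in DLD1, beside 643 of all 17572 genes (3.66%). Other lists gained calls too under this setting. Of 19 NF-kB genes, 12 were called lower, beside 783 of all genes. The 29 immediate early genes had 10 lower and 1 higher, and the 29 HIF targets outside glycolysis 10 lower and 2 higher.

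Of the lists for lipid metabolism, fatty acid synthesis had 2 of 14 genes called higher in DLD1 and PPAR factors with fatty acid oxidation 1 of 19, beside 0.324% of all genes. The cholesterol list of 25 had 1 call in each direction, LSS higher and NPC1 lower. SCD, which puts the double bond into fatty acids, rose in DLD1 from 2029, 2083 and 2158 CPM to 3877, 3518 and 3122 CPM. In SW480 it had 957.1, 826.3 and 970.6 CPM in controls and 953.7, 885.3 and 869.6 CPM after lactate, an effect of 0.00 on the log2 scale. The difference was 0.72 ± 0.14 (SE; adjusted p = 0.0345). ACSL1, which activates fatty acids with coenzyme A, fell in SW480 from a mean of 372.0 to 279.4 CPM and had 74.6 and 89.5 CPM in DLD1, a difference of 0.63 ± 0.13 (SE; adjusted p = 0.0432). LSS, the cyclase of cholesterol synthesis, fell in SW480 from 6.43, 5.77 and 6.31 CPM to 3.62, 3.77 and 3.99 CPM. In DLD1 it had 24.9, 23.9 and 27.0 CPM in controls and 35.3, 31.0 and 32.0 CPM after lactate, without overlap but with an adjusted p of 0.15. Its difference was 1.03 ± 0.17 (SE; adjusted p = 0.0168). PPARG, the nuclear receptor of fat storage, differed by 0.66 ± 0.13 (SE; adjusted p = 0.0373), with means of 46.5 and 36.3 CPM in SW480 and 40.3 and 51.2 CPM in DLD1.

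IRS1, the adaptor that couples the insulin and IGF receptors to their kinases, was named after its values were seen. It fell in SW480 from 108.7, 96.6 and 105.1 CPM to 65.0, 63.1 and 64.4 CPM. DLD1 had 92.0, 96.7 and 106.4 CPM in controls and 169.8, 126.5 and 139.7 CPM after lactate, an effect that missed the threshold (adjusted p = 0.0504). Its controls were alike in the 2 lines, and its difference of 1.21 ± 0.16 (SE; adjusted p = 0.00432) held without any 1 library. SCD, ACSL1, LSS and PPARG were all lost without SW480 control 1 or 3, SW480 lactate 2, or DLD1 lactate 1 or 3, and 1 to 3 of them without SW480 control 2, SW480 lactate 1 or 3, DLD1 control 1 or DLD1 lactate 2, with adjusted p from 0.0505 to 0.167. Median-of-ratios scaling also lost ACSL1 (adjusted p = 0.0551).

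**Figure D4:**
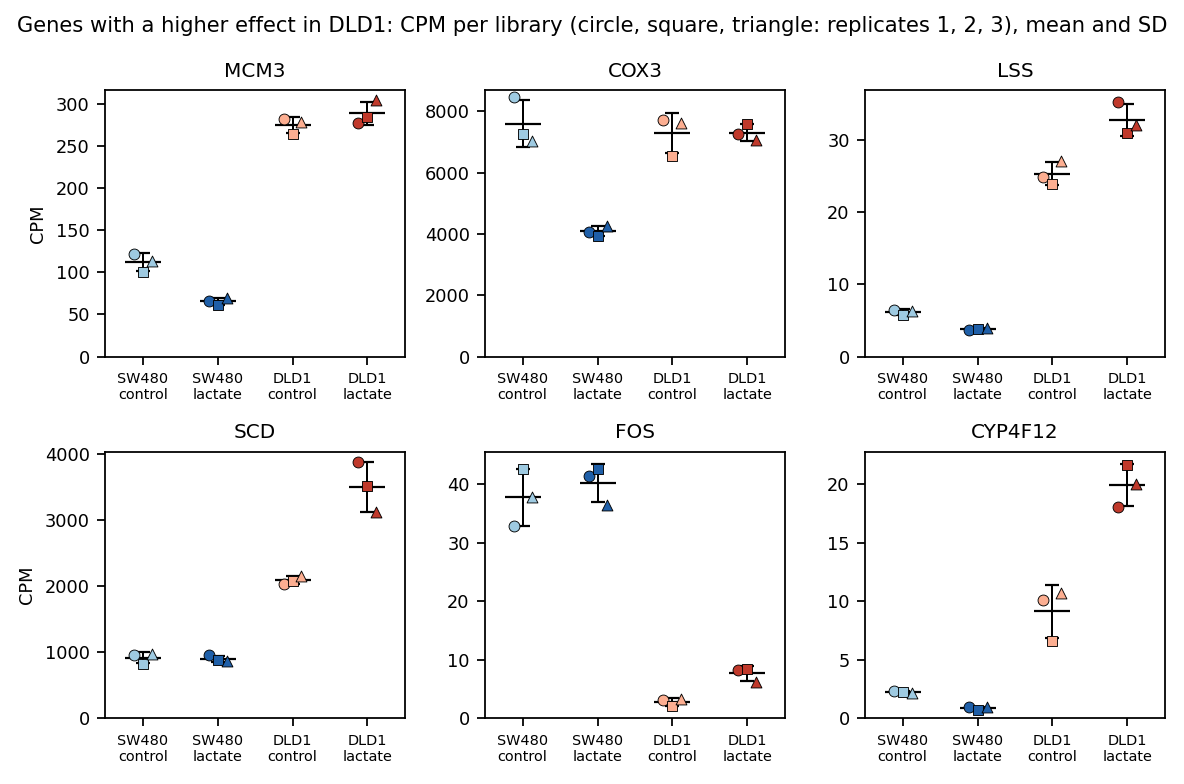
CPM of 6 genes whose lactate effect was higher in DLD1, in each of the 12 libraries (points, with a symbol for each replicate number), with the mean (bar) and SD (error bar) of 3 libraries, on axes that start at 0. MCM3, COX3 and LSS are lower after lactate in SW480, SCD and FOS are higher after lactate in DLD1, and CYP4F12 is lower in SW480 and higher in DLD1.

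CYP4F12, a cytochrome P450 of fatty acid oxidation (chromosome 19, 15673087 to 15697174), was the gene called in both lines that fell in SW480 and rose in DLD1. It had 2.32, 2.28 and 2.14 CPM in SW480 controls and 0.936, 0.672 and 0.925 CPM after lactate. The DLD1 values were 10.1, 6.57 and 10.7 CPM in controls and 18.04, 21.7 and 19.99 CPM after lactate. The difference was 2.49 ± 0.31 (SE; adjusted p = 0.00374). AKR1B10, an aldo-keto reductase under NRF2 control, fell in SW480 from 48.6, 35.4 and 46.1 CPM to 18.4, 17.3 and 17.6 CPM. It was nearly silent in DLD1, with 6, 7 and 7 counts in controls and 9, 12 and 21 after lactate, and its difference was 2.18 ± 0.37 (SE; adjusted p = 0.0168). It was the only call of 30 NRF2 targets and antioxidant enzymes, beside 0.728% of all genes, and the median difference of the list was 0.31.

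Of 13 keratins, KRT6A and KRT81 were called higher in DLD1 and 0 lower, beside 0.324% and 0.404% of all genes. Each of the 2 started from a very low level in DLD1. KRT6A, a keratin of stressed epithelium, had 3, 1 and 0 counts in DLD1 controls and 13, 13 and 15 after lactate, a ratio of summed CPM of 9.5 (95% interval 3.44 to 36.5, exact binomial, counting error only). In SW480 it had 67.2, 71.0 and 67.1 CPM in controls and 67.4, 56.2 and 47.6 CPM after lactate. Its adjusted p for the difference was 0.0168. KRT81, a hair keratin, rose in DLD1 from a mean of 0.643 to 1.87 CPM and had means of 16.8 and 15.7 CPM in SW480, a difference of 1.59 ± 0.32 (SE; adjusted p = 0.0339). HYAL1, a hyaluronidase, had the same form: it rose in DLD1 from a mean of 0.848 to 2.55 CPM, had 13.9 and 12.8 CPM in SW480, and differed by 1.61 ± 0.30 (SE; adjusted p = 0.0254).

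AXIN2, a feedback inhibitor that reports Wnt signalling, was the only call among 22 Wnt target and stem cell genes, beside 0.728% of all genes. It fell in SW480 from 23.3, 17.1 and 22.5 CPM to 11.2, 10.8 and 10.5 CPM. In DLD1 it had 491.7, 482.5 and 533.3 CPM in controls and 536.1, 484.0 and 519.9 CPM after lactate, which overlap. Its difference was 0.94 ± 0.16 (SE; adjusted p = 0.0168). Another 5 genes with large differences fell in SW480 from low levels. AVIL, which encodes the actin-binding protein advillin, went from a mean of 3.04 to 1.07 CPM there and had 8.78 and 9.80 CPM in DLD1, a difference of 1.66 ± 0.29 (SE; adjusted p = 0.0168). ALPK3, a kinase gene of heart muscle, differed by 1.79 ± 0.34 (SE; adjusted p = 0.0271). RARRES3, a retinoid-induced phospholipase, differed by 2.00 ± 0.42 (SE; adjusted p = 0.0432). ZNF488 and LBHD1 differed by 1.84 ± 0.36 (SE; adjusted p = 0.0331) and 1.49 ± 0.27 (SE; adjusted p = 0.0204). Summed over 3 libraries, SW480 counts went from 94 to 39 for ALPK3 and from 77 to 32 for RARRES3. They went from 96 to 48 for ZNF488 and from 166 to 80 for LBHD1. In DLD1 all 5 genes had their lactate libraries above the controls, with effects from 0.14 for AVIL to 0.76 for ZNF488. None of these DLD1 effects was called. RARRES3 had DLD1 controls of 9.23, 5.16 and 7.50 CPM, a spread wider than in its lactate libraries at 12.4, 12.3 and 10.7 CPM.

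Among the 12 called genes CYP4F12, AKR1B10, KRT6A, KRT81, HYAL1, FOS, AXIN2, AVIL, LBHD1, ALPK3, ZNF488 and RARRES3, CYP4F12 held without any 1 library. The other 11 were lost without SW480 control 1 or 3 or DLD1 lactate 3, and 2 to 10 of them without SW480 control 2, SW480 lactate 1, 2 or 3, DLD1 control 1, or DLD1 lactate 1 or 2, with adjusted p from 0.0505 to 0.146. KRT6A, KRT81 and HYAL1 were also lost without DLD1 controls 2 and 3 together, with adjusted p from 0.0582 to 0.0830. KRT6A, KRT81, CYP4F12 and AKR1B10 have close relatives in the genome with which their reads could be exchanged.

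Some genes moved in both lines, and for these the interval of the difference says how alike the changes can be called. HSPA6, a heat shock protein that cells make under strong stress, rose from 0.450, 0.325 and 0.405 CPM to 35.7, 36.6 and 43.1 CPM in SW480. In DLD1 it rose from 0.695, 0.335 and 0.781 CPM to 57.5, 39.8 and 29.9 CPM. The difference was -0.54 with a 95% interval of -1.70 to 0.61, so log2 effects of 6.59 and 6.05 cannot be told apart with these libraries. TXNIP, a brake on glucose uptake that responds to glucose and lactate, rose in both lines, with effects of 0.95 and 0.89 and a difference of -0.06 (95% interval -0.53 to 0.42). SERPINB5, which encodes maspin, had the narrowest interval of the shared genes named here, 0.12 (-0.15 to 0.40), which excludes a difference of 0.5 log2 units. SNAI1, a factor of epithelial-mesenchymal transition, had a difference of -0.18 (-0.85 to 0.49), and COL17A1, a collagen of hemidesmosomes, one of -0.48 (-0.999 to 0.05).

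Another 4 genes rose in both lines with a larger estimate in SW480, and an interval that does not reach 0, without passing the adjustment over all genes. They were CYR61, a secreted matrix protein also called CCN1, at -0.63 (adjusted p = 0.11), TSC22D3, the glucocorticoid-induced leucine zipper, at -0.66 (adjusted p = 0.12), the integrin gene ITGA5 at -0.56 (adjusted p = 0.21) and CYP1A1, which the aryl hydrocarbon receptor induces, at -0.87 (adjusted p = 0.25). CYP1A1 rose from a mean of 3.37 to 17.4 CPM in SW480 and from 0.599 to 1.84 CPM in DLD1.

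Many of the pathway lists gave 0 calls for the difference. They include 77 cytosolic ribosomal proteins (median difference -0.02), 25 TCA cycle and glutamine genes (0.10), 27 ATF4 stress targets (-0.11), 22 heat shock genes (0.04), 23 CDK inhibitors and p53 targets (-0.28), 24 YAP and TGF-beta targets (-0.09), 18 EMT factors and cadherins (-0.23), 26 interferon-stimulated genes (-0.01) and 25 histone acyl writers and erasers (0.12). A list without a call is not thereby shown to respond alike, since the median interval reaches 0.55 log2 units to either side.

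**Figure D5:**
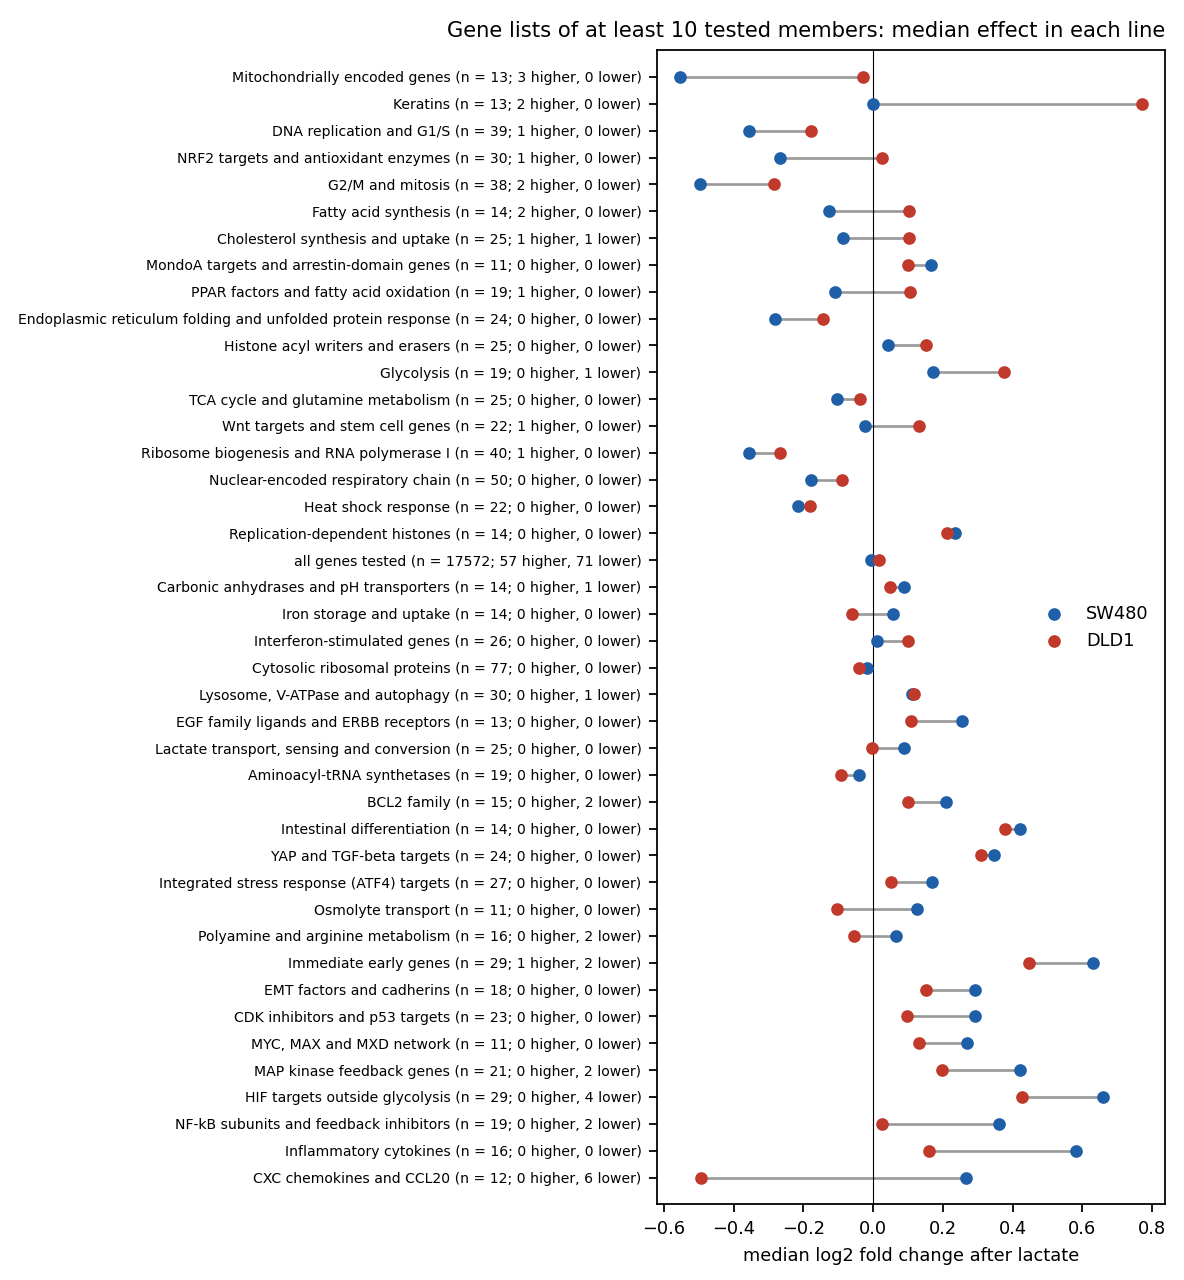
Median log2 fold change after lactate over the tested members of each gene list with at least 10 tested members, in SW480 (blue) and DLD1 (red), sorted by the median difference, with the numbers of members tested and called for the difference. The mitochondrially encoded genes, at -0.55 in SW480 and -0.03 in DLD1, and the chemokines, at 0.27 and -0.49, are at opposite ends of the plot.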

How the data were processed

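The deposited table holds raw counts per gene symbol, whole numbers with 1 column per library, and all 12 columns matched a library by title. Per the submitters' processing notes, reads were aligned with HISAT2 to GRCh38. Neither the HISAT2 version nor the counter, its annotation and its use of strand is given in the sources used here. Of 54261 symbols, 45971 matched a RefSeq symbol, 1854 an older name and 6436 none, and all stayed in the test. Positions and promoter windows are RefSeq's on GRCh38.p14.

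The test was edgeR 4.0.16 under R 4.3.3: filterByExpr by group, TMM scaling, and 1 robust quasi-likelihood model of 4 group means over 12 libraries, tested on simulated data. The contrast was (DLD1 lactate minus control) minus (SW480 lactate minus control). SE is the absolute log2 value over the square root of F, and 95% intervals use the t quantile at the model's degrees of freedom. CPM are per library total.

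Alternatives were DESeq2 1.42.0, limma-voom (limma 3.58.1), replicate number as a block, removal of the GC and length trend within libraries (splines with 5 degrees of freedom), scaling by upper quartile or median of ratios, testing without a filter or with one at 1 CPM in 3 libraries, an absolute log2 difference of at least 1, and leaving out libraries.

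The comparison, the gene lists and the fixed genes were chosen with earlier results of these data known. Genes were named by rule: the 10 largest differences in each direction whose mean reached 5 CPM in any group, up to 4 called members of each list, up to 10 genes called in both lines in opposite directions and up to 10 in the same direction without a called difference, and 14 fixed genes, among them HSPA6, TXNIP, LDHA and MYC. A few of the genes so named are not reported here.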

Additional observations from a re-analysis of the deposited data

Results flagged for a closer look

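The difference of the lactate effects between the lines passed its own test, over all genes, for 128 genes, and this is why each gene below is listed. Values are log2 differences, DLD1 minus SW480, for the 48 named genes among them. The lowest values were -2.77 for FMN1, -2.64 for PDGFB, -2.59 for CCL20, -2.21 for CXCL8, -2.08 for ANKRD37, -1.77 for EID2B and -1.77 for NDRG1. Next came -1.62 for AKAP12, -1.61 for NR1D1, -1.60 for MCL1, -1.55 for PHLDA1, -1.44 for CXCL3, -1.41 for ARG2 and -1.10 for HILPDA. Further values were -1.05 for CA12, -1.02 for CXCL1, -0.99 for HK2, -0.99 for NFKBIZ, -0.97 for TIPARP, -0.93 for PMAIP1 and -0.93 for SPRY2. The smallest negative differences were -0.85 for TNFAIP3, -0.83 for KLF6, -0.78 for SMS and -0.72 for NPC1. 

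On the positive side the highest values were 3.34 for KRT6A, 2.49 for CYP4F12, 2.18 for AKR1B10, 2.00 for RARRES3, 1.83 for ZNF488 and 1.79 for ALPK3. Below them stood 1.66 for AVIL, 1.61 for HYAL1, 1.59 for KRT81, 1.49 for LBHD1, 1.29 for FOS and 1.08 for PLK1. Then followed 1.03 for LSS, 0.94 for AXIN2, 0.90 for KIF20A, 0.85 for COX3, 0.79 for MCM3 and 0.73 for COX2. The smallest positive differences were 0.72 for SCD, 0.67 for UBTF, 0.66 for PPARG, 0.64 for ND1 and 0.63 for ACSL1. The values of KRT6A and FMN1 rest on 4 counts in 1 group, over its 3 libraries, and depend on the prior count of the model. Of the 48, the calls of CCL20, CXCL8, CXCL3, CXCL1, PHLDA1, MCL1, AKAP12 and CYP4F12 held without any 1 of the 12 libraries.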

How the results depend on the processing

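The number of calls, 128 in the report (57 higher and 71 lower in DLD1), depended on the processing, while the sign of each of the 128 differences was the same under every alternative that tested it. DESeq2 called 719 genes (283 higher, 436 lower), no filter 837 (463 and 374), and removal of the GC and length trend 1426 (643 and 783). Without DLD1 controls 2 and 3 together, the number was 627 (282 and 345), with the lone control assumed to vary like the other groups. A required log2 difference of at least 1 left 79 (34 and 45). Leaving out 1 library gave 9 to 1508 calls, 2 to 713 higher and 7 to 795 lower, from 9 without SW480 control 1, 10 without SW480 control 3 and 11 without DLD1 lactate 3 to 596 and 1508 without DLD1 control 2 or 3. The remaining libraries gave 125 without SW480 control 2, 238, 19 and 61 without SW480 lactate 1, 2 and 3, 54 without DLD1 control 1, and 36 and 30 without DLD1 lactate 1 and 2. The cause of these changes was not tested. The setting with no filter tested 36138 genes. Without a filter, 28.2% of intervals lay within 1 log2 unit of 0, against 54.3%. Median-of-ratios scaling called 149, upper quartile scaling 125, the stricter filter 143 and limma-voom 95. Replicate number as a block within each line gave 274 calls (136 and 138), with the GC trend also removed 1306 (585 and 721), and as a block over both lines 93. Same-numbered control and lactate libraries deviated together with r of 0.05, 0.08 and 0.13 in SW480 and -0.17, 0.22 and 0.30 in DLD1. DLD1 control 1 correlated best with DLD1 lactate 3. For every other control the same-numbered lactate library had the highest r within its line, in a tie for SW480 control 2. The main test did not take the numbers to pair libraries, and the block within each line gives the result if they do. Of the 48 named calls, 48 held under the block within lines and 36 under the block over both lines, which lost FMN1, NPC1, NR1D1, EID2B, COX2, ND1, UBTF, SCD, ACSL1, PPARG, KRT81 and ALPK3 (adjusted p from 0.0531 to 0.0806). Among the named genes that were not called, the sign turned for TXNIP, at 0.02 with the GC trend removed, 0.027 with the replicate block within lines and the GC trend removed, and -0.248 to 0.065 with 1 library left out. It also turned for ANGPTL4 (-0.001 to 0.563) and SNAI1 (-0.416 to 0.032) with 1 library left out. Genes with few counts, such as KRT6A and FMN1, are limited by depth.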

Other observations

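The genes here were named after their values were seen, from the 128 called for the difference. Several signalling and transcription genes rose in SW480 and had overlapping groups in DLD1. ETS1, a transcription factor of invasion, had 55.0, 69.4 and 56.8 CPM in SW480 controls and 126.0, 145.9 and 179.9 CPM after lactate, with 8.39 to 12.5 CPM over the 6 DLD1 libraries, and its difference was -1.47 ± 0.23 (SE; adjusted p = 0.0143). GATA6, a factor of gut endoderm, rose in SW480 from 3.47, 3.90 and 4.57 CPM to 9.23, 10.95 and 12.7 CPM, against 43.0 to 59.2 CPM in DLD1, a difference of -1.35 ± 0.21 (SE; adjusted p = 0.0147). MLKL, the effector of necroptosis, and IRAK2, a kinase of interleukin 1 signalling, differed by -1.20 ± 0.18 (SE; adjusted p = 0.0131) and -1.04 ± 0.16 (SE; adjusted p = 0.0141). ZFP36L1, which destabilizes AU-rich messenger RNAs, and CNOT8, a subunit of the deadenylase complex, differed by -1.25 ± 0.21 (SE; adjusted p = 0.0168) and -0.98 ± 0.14 (SE; adjusted p = 0.0119).

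Other genes were higher in DLD1. HNRNPM and ACIN1, linked to splicing, differed by 0.62 ± 0.13 (SE; adjusted p = 0.0404) and 0.59 ± 0.12 (SE; adjusted p = 0.0332). HEXIM1, an inhibitor of transcription elongation, fell in SW480 from a mean of 274.2 to 152.1 CPM and differed by 1.01 ± 0.17 (SE; adjusted p = 0.0168). SCNN1A, a subunit of the epithelial sodium channel, and S100A4, a calcium-binding protein of motile cells, fell in SW480 and had all 3 lactate libraries above the controls in DLD1, with DLD1 effects of 0.56 (adjusted p = 0.067) and 0.59 (adjusted p = 0.11) and differences of 1.11 ± 0.17 (SE; adjusted p = 0.0143) and 1.10 ± 0.20 (SE; adjusted p = 0.0200). Each call in this section was lost without at least 1 library. Of the 12 fits without 1 library, HNRNPM and ACIN1 were called in 3, HEXIM1 in 5 and S100A4 in 6. ZFP36L1 was called in 7, SCNN1A in 8, ETS1, GATA6, IRAK2 and CNOT8 in 9 and MLKL in 10. The highest adjusted p in these fits was 0.167, for HNRNPM. The replicate block over both lines also lost HNRNPM and ACIN1 (adjusted p = 0.0647 and 0.0691).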
